A study of Mus musculus with 33 samples.

Results

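Lefty1 and Lefty2 are a pair of mouse genes for secreted inhibitors of Nodal, and they were taken here by name. They are 2 of the 21844 genes to which the transcripts of the count tables were assigned, and each is measured by 1 transcript. Nodal and activin A are ligands of the TGF-β family that bind activin receptors and pass the signal on through Smad2 and Smad3. Nodal needs an EGF-CFC co-receptor, Tdgf1 or Cfc1, and activin does not. Lefty proteins bind Nodal and its co-receptors and so block Nodal, but not activin, and both genes are targets of the pathway that they limit. In the mouse embryo Lefty1 marks the anterior visceral endoderm and the floor plate, and Lefty2 marks the nascent mesoderm and the left lateral plate. Both genes are also expressed in pluripotent cells.

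The 33 libraries came from differentiating mouse embryonic stem cells, grown in serum-free conditions as embryoid bodies, aggregates of differentiating cells. These were dispersed on day 2, when any treatment began, and harvested on day 4. The dose set, made by DP-seq (amplification of cDNA with defined heptamer primers), held 2 untreated control libraries (SFM) and 1 with SB-431542 (SB), an inhibitor of the activin and Nodal type I receptors. Activin A was given at 3 ng/mL in 1 further library (AA3), while 2 libraries had 15 ng/mL (AA15) and 1 had 100 ng/mL (AA100). No mRNA amount was recorded here for the dose set. Other libraries, all with activin at 3 or 100 ng/mL, were made by standard RNA-seq from 20 ng of mRNA, by DP-seq from 50 pg and by SMART-seq, a full-length cDNA method, from 50 pg. These sets held 2 AA3 and 1 AA100, 1 AA3 and 2 AA100, and 2 AA3 and 2 AA100 libraries. A dilution series of AA3 mRNA ran from 10 ng to 1 pg, and 3 primer sets against ribosomal transcripts and 1 paired-end library completed the series, all with AA3. SFM replicate 2 is labelled as holding spiked yeast transcripts. Apart from SFM, the labels call all paired libraries technical replicates, so their p-values set samples against technical spread, and a group stands for 1 sample. Whether the 2 SFM libraries were grown as separate cultures is not stated.

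The 2 genes lie near each other on chromosome 1 and resemble each other closely, which bears on every count below. Their coding sequences, each of 1104 bases, differed at 90 positions in the GENCODE mouse transcripts, an identity of 91.8%. Of all 32-base words, 24.5% of those in the Lefty1 transcript and 16.0% of those in the Lefty2 transcript also occurred in the other one. The deposited values are unique reads, and how reads that match both transcripts were treated is not given in the sources used here. The 60-base stretch with the most differences, read from those transcripts 5′ to 3′, shows what tells the genes apart. It spans coding positions 34 to 93, counted from the start codon, and the 18 bases that differ are set in capitals. Reads from this stretch can be assigned to 1 gene.
Lefty1: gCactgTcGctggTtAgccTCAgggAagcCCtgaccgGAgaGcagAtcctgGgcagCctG
Lefty2: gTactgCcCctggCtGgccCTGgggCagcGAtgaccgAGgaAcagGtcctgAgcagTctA

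Across the dose set, both genes went from no counts with the receptor inhibitor to their highest level at the highest activin dose. Levels are in CPM, the usual unit of read counts scaled to a common library total. With SB-431542, Lefty1 and Lefty2 each had 0 counts in 15042168, and 3 counts, taken as the floor, would be 0.199 CPM (the exact two-sided 95% Poisson limit is 0.245 CPM). Lefty1 stood at 2.60 CPM (40 counts) in SFM replicate 1 and 0.383 CPM (5 counts) in SFM replicate 2. It was at 10.2 CPM in AA3 (161 counts), 29.2 and 34.3 CPM in the AA15 libraries (459 and 501 counts), and 53.0 CPM in AA100 (819 counts). Lefty1 thus had the same order in all 7 libraries as the treatments, and no groups overlapped. Lefty2 stood at 5.20 CPM (80 counts) and 15.2 CPM (199 counts) in the SFM libraries. It was at 12.03 CPM in AA3 (189 counts), 31.5 and 30.2 CPM in AA15 (494 and 441 counts), and 112 CPM in AA100 (1737 counts). The Lefty2 value of AA3 fell between those of the SFM libraries, so these groups overlapped, and from AA3 upwards none did. With so few libraries a group, separation alone says little, and the share of all genes that part in this way was not counted. Among the genes detected in a group, the mean of Lefty1 lay above 35.7% in SFM and 79.8% in AA100, and that of Lefty2 above 58.9% and 88.4%, so both ranked higher in AA100. In bulk samples such as these, fewer cells that express a gene and less RNA per cell cannot be told apart.

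**Figure D1:**
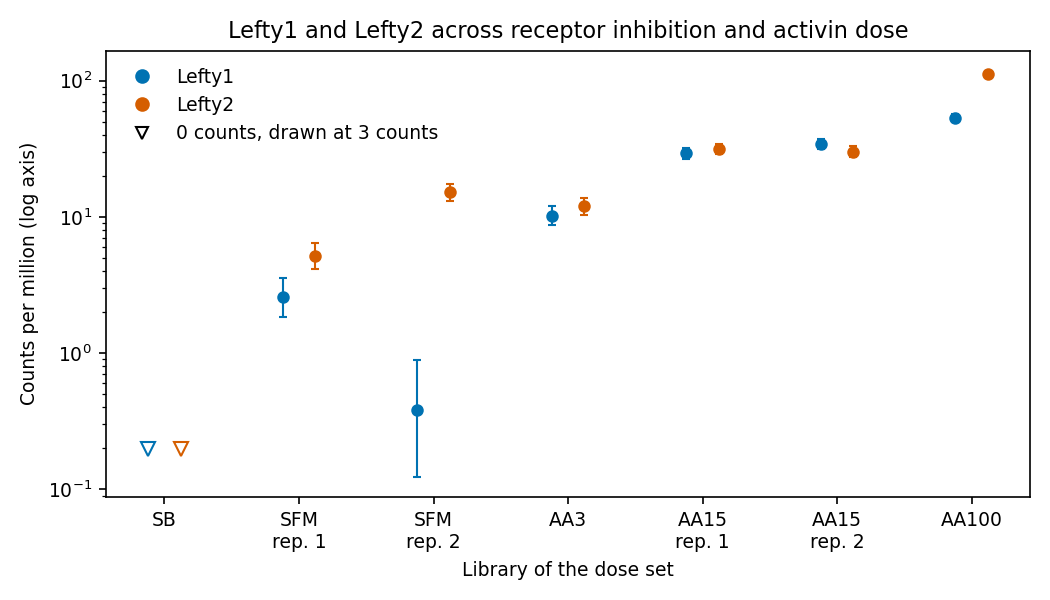
CPM of Lefty1 (blue) and Lefty2 (orange) in each of the 7 dose-set libraries, on a log axis; bars are exact 95% Poisson intervals and triangles mark 0 counts, drawn at 3 counts. From AA3 to AA100 Lefty1 goes from 10.2 to 53.0 and Lefty2 from 12.03 to 112 CPM, while the SFM libraries differ from each other in opposite directions for the 2 genes.

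The SFM libraries disagreed far more than the AA15 pair, and the members were among the genes that showed it. SFM replicate 1 was 6.78 times SFM replicate 2 for Lefty1, and SFM replicate 2 was 2.93 times SFM replicate 1 for Lefty2. The same ratios in the AA15 pair were 1.17 and 1.04. Over 7739 genes, the SD of the log2 ratio between replicates was 1.66 in SFM and 0.315 in AA15. The 6 housekeeping genes summed to 1925 CPM in the lower and 8977 CPM in the higher of the SFM libraries. In the others of the dose set they summed to 10470 to 15860 CPM, and their part in the members' values was not tested. Results of the members that use SFM are therefore given with and without SFM replicate 2. In comparisons of groups without it, the AA15 pair alone supplied the spread.

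The first question was whether the genes followed the dose over SFM, AA3, AA15 and AA100. The fitted slope per dose step was 1.86 ± 0.33 log2 units (± SE) for Lefty1 and 0.99 ± 0.25 for Lefty2, and neither passed the threshold of 0.05 (edgeR quasi-likelihood test, 6 libraries, Benjamini-Hochberg adjusted p = 0.0829 and 0.177). Of the 12102 genes tested, 0.397% were called. Without SFM replicate 2 both slopes passed, at 1.50 ± 0.16 for Lefty1 and 1.50 ± 0.10 for Lefty2 (edgeR, adjusted p = 1.24e-04 and 3.74e-06), where 5.79% of 11970 genes were called. Without SFM replicate 1 in its place, the slopes were 1.99 ± 0.44 for Lefty1 and 0.84 ± 0.24 for Lefty2, neither was called (edgeR, adjusted p = 0.148 and 0.164), and 2 genes were called in all. Both the calls and the likeness of the slopes therefore depend on which SFM library is kept.

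The comparisons with the control show how much the SFM pair weighs. In AA100 against SFM, the ratios to the single SFM libraries were 20.4 and 138.0 for Lefty1 and 7.37 and 21.6 for Lefty2. In AA15 they ran from 11.3 to 89.6 for Lefty1 and from 1.98 to 6.06 for Lefty2. In AA3 they were 3.94 and 26.8 for Lefty1, and 0.789 and 2.32 for Lefty2. The choice of SFM library thus moved every one of these ratios by more than the spread of the AA15 pair. With SFM replicate 2 in the fit, edgeR called 0.0% of 12180 genes in each of the comparisons of SB, AA3, AA15 and AA100 with SFM. At an unadjusted p under 0.05 it counted 179, 197, 702 and 541 genes in these comparisons, and DESeq2 called 17, 14, 168 and 106. Adjusted edgeR p-values of the members lay between 0.635 for Lefty1 in AA15 and 0.999 for Lefty2 in AA3.

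Without SFM replicate 2, edgeR called 4.12% of genes for SB against SFM, 5.27% for AA3, 13.0% for AA15 and 12.9% for AA100, and both members were called in all of these. Lefty1 was higher by 2.09 ± 0.38 log2 units in AA3, 3.75 ± 0.35 in AA15 and 4.46 ± 0.38 in AA100 (edgeR, adjusted p = 2.2e-05, 6.28e-18 and 3.98e-21). Lefty2 was higher by 1.32 ± 0.34 in AA3, 2.70 ± 0.32 in AA15 and 4.54 ± 0.35 in AA100 (edgeR, adjusted p = 0.00632, 9.2e-13 and 6.09e-24). Without SFM replicate 1 in its place, AA3 against SFM gave 4.36 ± 0.54 for Lefty1 and -0.70 ± 0.33 for Lefty2. The direction of Lefty2 in that comparison thus turns with the SFM library kept, and that of Lefty1 does not.

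For the receptor inhibitor, a fold is a lower bound, since both genes had 0 counts. Taking 3 counts in the SB library as the floor, Lefty1 was at least 13.0-fold lower against SFM replicate 1, and against SFM replicate 2 the bound was at least 1.92-fold lower. For Lefty2 the same bounds were at least 26.1-fold lower and, for SFM replicate 2, at least 76.4-fold lower. Both genes were called lower in SB when either SFM library was left out (edgeR, adjusted p = 2.26e-07 for Lefty1 and 4.18e-12 for Lefty2 without SFM replicate 2, and 0.0050 and 9.38e-36 without SFM replicate 1). Without SFM replicate 1, 7055 genes were called in this comparison, so that a call there sets a gene little apart, and the Lefty1 call rests on 5 counts against 0. With both SFM libraries in the fit the adjusted p was 0.963 for each gene.

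Among the activin doses, the genes differed more in the upper step than in the lower. From AA3 to AA15 the mean was 3.10 times as high for Lefty1 and 2.56 times as high for Lefty2. From AA15 to AA100 it was 1.67 times as high for Lefty1 and 3.64 times as high for Lefty2. The AA15 libraries spanned ratios of 1.54 to 1.81 in this step for Lefty1 and 3.57 to 3.72 for Lefty2, so the steps of the 2 genes lay further apart than the technical pair. Whether the steps differ between the genes was not tested, and each gene has its own test only.

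Neither step was called with all 7 libraries in the fit. There 0.0% of 12180 genes were called in AA15 against AA3, in AA100 against AA15 and in AA100 against AA3, by edgeR and by DESeq2 alike, and at an unadjusted p under 0.05 edgeR counted 31, 56 and 128. Without SFM replicate 2, the step from AA3 to AA15 was called for Lefty1 (1.66 ± 0.30 log2 units, edgeR adjusted p = 4.03e-05) and for Lefty2 (1.38 ± 0.28, adjusted p = 5.32e-04), beside 3.01% of genes. The step from AA15 to AA100 was then called for Lefty2 (1.84 ± 0.25, edgeR adjusted p = 2.61e-09) and not for Lefty1 (0.71 ± 0.26, adjusted p = 0.137), beside 2.53% of genes. Leaving out SFM replicate 1 in place of replicate 2 gave the same calls, with adjusted p-values of 1.07e-10 for Lefty2 and 0.117 for Lefty1 in the upper step. Leaving out either AA15 library gave none, with adjusted p = 1 in both steps for both genes.

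The same contrast, activin at 100 against 3 ng/mL, was also made in 3 further library sets, and Lefty1 rose in each of them. By standard RNA-seq Lefty1 stood at 10.5 and 10.1 CPM in AA3 and 70.5 CPM in AA100. By DP-seq from 50 pg it stood at 6.46 CPM in AA3 and at 81.3 and 66.2 CPM in AA100. By SMART-seq it stood at 11.8 and 7.12 CPM in AA3 and at 147 and 157 CPM in AA100. Every AA100 library thus lay above every AA3 library of its set for Lefty1. With so few technical libraries a group this alone says little, and the share of all genes that did so was not counted. The ratio of means was 6.84 by standard RNA-seq, 11.4 by DP-seq from 50 pg and 16.0 by SMART-seq, beside 5.17 in the dose set.

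Lefty1 was called in all 3 sets. The log2 change was 2.80 ± 0.10 by standard RNA-seq (edgeR, adjusted p = 4.98e-172), where 62.3% of genes were called, so that a call there sets a gene little apart. That fit took its whole spread from a technical pair whose members differed 1.04-fold for both genes. It was 3.502 ± 0.483 by DP-seq from 50 pg (edgeR, adjusted p = 6.06e-05), where 3.43% were called, and 3.94 ± 0.30 by SMART-seq (edgeR, adjusted p = 0.0137), where 1.35% were called. In a joint fit of all 10 libraries of these sets, which pools the spread, the standard RNA-seq change of Lefty1 was also called (2.79 ± 0.32, edgeR adjusted p = 0.00769), and 1.91% of genes were. Without either AA3 library of standard RNA-seq, that call was lost (edgeR, adjusted p = 0.0702 and 0.0694). The SMART-seq call was lost without either AA100 library (edgeR, adjusted p = 0.0721 without replicate 1 and 0.0858 without replicate 2).

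Lefty2 had smaller ratios in these sets than in the dose set. By standard RNA-seq it stood at 16.1 and 15.5 CPM in AA3 and 35.8 CPM in AA100. By DP-seq from 50 pg it stood at 6.46 CPM in AA3 and at 13.3 and 21.1 CPM in AA100. By SMART-seq it stood at 3.69 and 2.68 CPM in AA3 and at 6.72 and 9.07 CPM in AA100. Again no AA3 library reached an AA100 library of its set, and the share of all genes that parted in this way was not counted here either. The ratio of means lay between 2.27 and 2.67 in the 3 sets, beside 9.34 in the dose set.

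The change of Lefty2 was called only by standard RNA-seq, at 1.20 ± 0.11 log2 units (edgeR, adjusted p = 3.38e-27), and the call was lost in the joint fit (1.20 ± 0.56, edgeR adjusted p = 0.645). By DP-seq from 50 pg it was 1.40 ± 0.71 and by SMART-seq 1.25 ± 0.58 (edgeR, adjusted p = 0.352 and 0.358). In the dose set, without SFM replicate 2, Lefty1 rose by 2.37 ± 0.33 and Lefty2 by 3.22 ± 0.33 from AA3 to AA100 (edgeR, adjusted p = 4.5e-09 and 2.19e-15), beside 4.64% of genes.

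**Figure D2:**
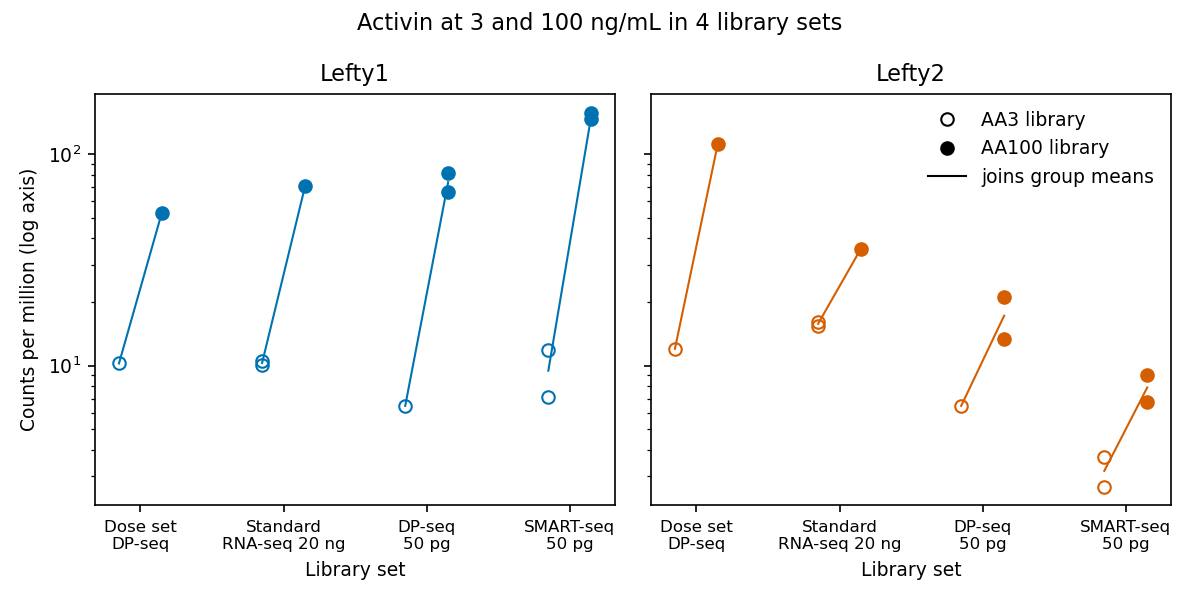
CPM of Lefty1 (left) and Lefty2 (right) at activin 3 ng/mL (open circles) and 100 ng/mL (filled circles) in 4 library sets, 1 point a library, on a shared log axis; lines join group means. The ratio of AA100 to AA3 for Lefty1 ranges from 5.17 in the dose set to 16.0 by SMART-seq, and that for Lefty2 from 2.27 by standard RNA-seq to 9.34 in the dose set.

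The differences between sets were tested as such, and none was called for either member. For Lefty1, the change by DP-seq minus that by standard RNA-seq was 0.72 ± 0.49 log2 units, and the change by SMART-seq minus that by standard RNA-seq was 1.08 ± 0.43 (edgeR joint fit of 10 libraries, adjusted p = 0.715 and 0.461). SMART-seq minus DP-seq was 0.36 ± 0.44 (edgeR, adjusted p = 0.831). For Lefty2 these differences were 0.21 ± 0.82, -0.02 ± 0.76 and -0.23 ± 0.75 (edgeR, adjusted p from 1.00 to 1). Of 14072 genes, 0.739%, 0.853% and 0.0213% were called in these 3 comparisons. DP-seq from 50 pg minus the dose set gave 1.11 ± 1.27 for Lefty1 and -1.84 ± 1.29 for Lefty2 (edgeR, adjusted p = 1.00 for both). There 0.0% of 13035 genes were called, 467 had an unadjusted p under 0.05, and DESeq2 called 6. The fit with the dose set held both SFM libraries, so their disagreement entered its spread. These tests do not show that the sets act alike.

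The balance between the 2 genes within a library needs no scaling between libraries, and it moved in opposite directions in the dose set and in the other sets. In the dose set Lefty1 made up 46.0% of the summed counts of both genes in AA3 (exact binomial 95% interval 40.7 to 51.4) and 32.04% in AA100 (30.2 to 33.9). Its share was 48.2% and 53.2% in the AA15 libraries, 33.3% in SFM replicate 1 and 2.45% in SFM replicate 2. By standard RNA-seq the share went from 39.5% in both AA3 libraries to 66.3% in AA100 (63.4 to 69.1). By DP-seq from 50 pg it went from 50.0% (41.4 to 58.6) to 85.9% and 75.8%. By SMART-seq it went from 76.2% and 72.7% to 95.6% and 94.5%. Reads amplified by PCR do not each stand for a molecule, and the intervals therefore hold counting error alone.

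Lefty1 was thus the minor of the 2 in the dose-set AA100 library and the major one in the 5 other AA100 libraries. Those 5 libraries include technical pairs, and the labels do not say whether their sets share mRNA. The share in AA100 minus that in AA3 was -13.96 percentage points in the dose set, and 26.8, 30.9 and 20.6 points by standard RNA-seq, DP-seq from 50 pg and SMART-seq. The shift was not tested. The RPKM scale is CPM divided by the transcript length in kilobases. On it Lefty1 stood at 6.50 and 6.23 and Lefty2 at 6.51 and 6.25 in the standard AA3 libraries. The genes thus differed by less than the AA3 replicates did. In the standard AA100 library they were 43.5 for Lefty1 and 14.5 for Lefty2. In the dose-set AA100 library, on the same scale, they were 32.7 and 45.5, with Lefty2 the higher. DP-seq counts come from defined primers and need not follow transcript length, so that order holds for the scaled values only.

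**Figure D3:**
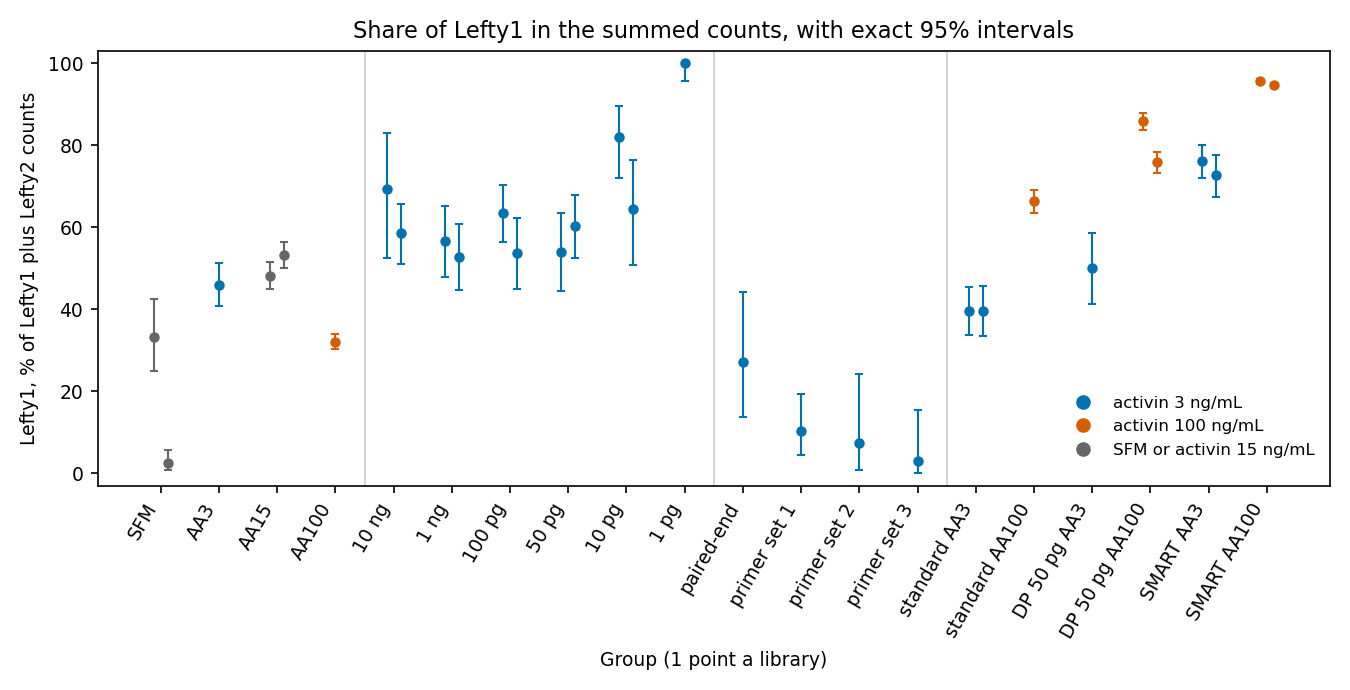
Share of Lefty1 in the summed Lefty1 and Lefty2 counts, in percent, for each library with any counts of either gene (1 point a library, bars are exact binomial 95% intervals). In the dose set the AA100 library, at 32.04%, lies below AA3, while in the other 3 sets at the right every AA100 library lies above the AA3 libraries of its set.

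Some cell type markers differed between the dose set and the other sets too, and their part in the opposite shifts was not tested. At AA3 the summed level of 6 extraembryonic visceral endoderm genes, such as Ttr and Apoa1, was 100.1 CPM in the dose set and 1.41 to 4.57 CPM in the other 3 sets. At AA100 it was 53.3 CPM in the dose set and 0.448 to 19.1 CPM in the others. Ttr, Apoa1, Amn and Cubn were at 0 in the DP-seq AA3 library from 50 pg, and Afp was at 0 in each group of these sets but SMART-seq AA100. Of 5 neural progenitor genes, such as Pax6 and Sox1, the sum at AA3 was 56.6 CPM in the dose set and 0.0653 to 7.21 CPM in the others. Libraries made by the same DP-seq method, in the dose set and from 50 pg, thus stood apart in these genes at the same labelled dose. The sums of the pluripotency and anterior endoderm lists lay closer at AA3 but for SMART-seq, and they do not stand for each member. Mean Cer1 at AA3 was 80.1 CPM in the dose set, 242.0 by standard RNA-seq, 323.5 by DP-seq from 50 pg and 166.7 by SMART-seq. The co-receptors Tdgf1 and Cfc1, the first also in the pluripotency list, summed to 612 CPM in the dose set and 257 to 268 by standard RNA-seq. Their sum was 351 CPM by DP-seq from 50 pg and 518 to 559 by SMART-seq. The 7 pluripotency genes summed to 882 CPM in the dose set and 861 to 874 CPM by standard RNA-seq. DP-seq from 50 pg gave 731 CPM and SMART-seq 635.5 to 670.9 CPM. The 7 anterior visceral and definitive endoderm genes summed to 819, 813, 864 and 445 to 450 CPM in these sets. The AA100 pluripotency sum was 2275 CPM in the dose set and 915 to 1699 CPM in the others.

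Markers of tissues known to express a Lefty gene moved with the members in part. In the dose set the sum of 7 pluripotency genes went from 128.9 CPM in SB and 256 to 383 CPM in SFM to 882 in AA3, 1539 to 1853 in AA15 and 2275 CPM in AA100, with Esrrb at 0 in each group. Tdgf1, which is in this list, is also a Nodal co-receptor and supplied most of the AA100 sum. Of the 6 pluripotency genes tested for the dose trend without SFM replicate 2, 1 was called higher and 2 lower. The 7 anterior visceral and definitive endoderm genes summed to 109 to 946 CPM in SFM, 1092 in SB and 819 in AA3. They summed to 984 to 1055 CPM in AA15 and 1634 CPM in AA100, so that the SB sum lay above AA3, against the order of the members. This sum does not stand for each gene, since Cer1, in this list, was at 0.266 CPM in SB. With all libraries the median log2 change of these genes was -0.188 in SB against SFM, and their median dose slope was 0.75. The 6 lateral plate genes summed to 3.83 to 17.5 CPM in SFM, 5.98 in SB, 16.7 in AA3, 18.2 to 23.1 in AA15 and 51.3 CPM in AA100, with AA3 within the SFM range. The 6 floor plate genes gave 39.5 to 40.0 CPM in SFM, 44.9 in SB, 19.9 in AA3, 18.2 to 21.5 in AA15 and 40.3 CPM in AA100, and did not follow the Lefty genes. The neural progenitor sum went the opposite way to the members, from 266 to 457 CPM in SFM and 535 CPM in SB to 6.80 CPM in AA100. The part of cell type in the changes of the members was not tested.

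The other genes of the pathway were read from a list of 48 in 8 roles, of which 39 were tested for the dose trend. With all libraries, 3 were called higher and 0 lower, beside 0.397% of all genes called, and without SFM replicate 2, 14 were higher and 0 lower, beside 5.79%. The median slope of the list was 0.34 log2 units in both fits, beside 0.00 over all genes tested. In SB against SFM without SFM replicate 2, 11 of 39 were lower and 0 higher, beside 4.12% of all genes, and with all libraries none of the 39 was called, beside 0.0%. In AA100 against AA3, 22 of 42 tested were higher and 10 lower by standard RNA-seq, beside 62.3% of all genes called. By DP-seq from 50 pg 3 of 39 were higher, beside 3.43%, and by SMART-seq 2 of 35 were higher and 1 lower, beside 1.35%.

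Among ligands and co-receptors, Nodal, which the Lefty proteins inhibit, stood at 14 and 2 counts in SFM, 84 in AA3, 129 and 213 in AA15 and 158 in AA100. Its slope of 1.57 ± 0.44 was not called (edgeR, adjusted p = 0.225, and 0.0764 without SFM replicate 2). By standard RNA-seq Nodal was level between the doses, at 35.5 CPM in AA3 and 36.8 CPM in AA100 (0.07 ± 0.09 log2 units, edgeR adjusted p = 0.49), where both Lefty genes were called higher. Tdgf1, the co-receptor also known as Cripto, rose by 1.12 ± 0.13 per step and Cfc1, the co-receptor Cryptic, by 0.99 ± 0.14 without SFM replicate 2 (edgeR, adjusted p = 2.01e-04 and 0.00101). With all libraries their adjusted p-values were 0.0551 and 0.265. Tgfb1, the ligand TGF-β1, was called without SFM replicate 2 (0.86 ± 0.17, edgeR adjusted p = 0.00784) and not with all libraries (1.06 ± 0.25, adjusted p = 0.156). Gdf3, a Nodal-related ligand, and the proprotein convertases Pcsk5 and Pcsk6 had slopes of -0.35, 0.34 and -0.19 in that fit and were not called.

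No receptor or transducer in the list was called in the dose trend. Without SFM replicate 2 the slopes of Acvr2b and Acvr2a, type II activin receptors, and of Acvr1b, the type I receptor ALK4, lay between -0.22 and 0.03. Foxh1, the forkhead partner of Smads in Nodal target genes, had a slope of 0.52 ± 0.16, Smad2 of -0.36 ± 0.12 and Zfhx3 of 0.06 ± 0.12 (edgeR, adjusted p = 0.0746, 0.0957 and 0.849). By standard RNA-seq, where most genes were called, all 4 receptors tested were lower in AA100 than in AA3, and of 7 transducers 3 were higher and 2 lower.

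The inhibitors of the pathway moved in part with the Lefty genes. Cer1, another secreted Nodal antagonist, went from 34.0 to 37.6 CPM in SFM and 0.266 CPM in SB to 736 CPM in AA100, and its slope was called with all libraries (1.35 ± 0.15, edgeR adjusted p = 0.0287) and without SFM replicate 2 (1.49 ± 0.10, adjusted p = 3.74e-06). Fst, which encodes the activin-binding protein follistatin, was called without SFM replicate 2 (0.85 ± 0.19, edgeR adjusted p = 0.0188, and 0.143 with all libraries) but was lower in AA100 than in AA3 by standard RNA-seq (-0.49 ± 0.05, adjusted p = 1.39e-25). Inha, the inhibin alpha subunit gene, had a slope of 0.13 ± 0.19. Among intracellular inhibitors, Pmepa1 and Smad7 were called without SFM replicate 2 (0.98 ± 0.22 and 0.55 ± 0.13, edgeR adjusted p = 0.019 and 0.0261, and 0.193 and 0.27 with all libraries), and Tgif2 was not (0.18 ± 0.10, adjusted p = 0.367).

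Of the 10 target transcription factor genes, 7 were called higher without SFM replicate 2, beside 5.79% of all genes, and 2 with all libraries, beside 0.397%. The primitive streak homeobox gene Mixl1 had the steepest slope of the list with all libraries (1.88 ± 0.21, edgeR adjusted p = 0.0287), close to the 1.86 of Lefty1, and was called without SFM replicate 2 as well (1.73 ± 0.17, adjusted p = 1.05e-04). Gsc, an organizer homeobox gene, had a slope of 1.27 ± 0.13 without SFM replicate 2 (edgeR, adjusted p = 7.04e-05, and 0.135 with all libraries), and T, the streak gene Brachyury, was called as well. The split SFM pair shows in Gsc too, which had 29 counts in SFM replicate 1 and 1 in SFM replicate 2.

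The closest patterns to each member were found by the Pearson correlation of log2(CPM + 1), centred within each library set, over 17 libraries and among 8844 genes with a mean of at least 5 CPM. These libraries share samples and technical pairs, so the values are a description. Most like Lefty1 were Relt, a TNF receptor family gene (0.98), Tagln2, an actin-binding protein gene (0.967), Pmepa1 (0.953), Flt1, a VEGF receptor gene (0.95), and Igfbp3, an IGF-binding protein gene (0.943). Most like Lefty2 were Cer1 (0.956), Vim, the vimentin gene (0.954), Lhx1, a LIM homeobox gene (0.951), Adam19, a metalloproteinase gene, and Pdgfrl, a PDGF receptor-like gene (both 0.939). By Spearman's rank correlation, Relt kept rank 1 for Lefty1 and Cer1 rank 4 for Lefty2, while Pmepa1 and Igfbp3 fell to ranks 53 and 62 for Lefty1 and Vim and Adam19 to ranks 48 and 72 for Lefty2. The 5 genes nearest to Lefty1 and the 5 nearest to Lefty2 had no gene in common. Lefty1 and Lefty2 correlated at 0.791 with each other, which put Lefty2 at rank 160 for Lefty1 and Lefty1 at rank 82 for Lefty2.

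The leading genes differed in how they compared between the SFM libraries. Relt stood at 9.65 to 18.6 CPM in SFM, 34.6 in AA3, 47.3 to 54.7 in AA15 and 78.3 CPM in AA100, and like Lefty1 it was lower in SFM replicate 2 than in replicate 1. By SMART-seq Relt went from 1.21 to 1.41 CPM in AA3 to 7.99 to 9.28 CPM in AA100. Pdgfrl, like Lefty2, was higher in SFM replicate 2 (19.6 CPM) than in replicate 1 (6.89 CPM), and its AA3 value of 13.9 CPM lay between them. Cer1, the gene most like Lefty2, had SFM libraries that were close to each other (34.0 and 37.6 CPM) and a higher AA3 value (80.1 CPM), and Lhx1 was lower in SFM replicate 2 (5.75 CPM) than in replicate 1 (9.03 CPM). The contrast between the SFM libraries was thus not shared by all genes like Lefty2. Over the 7 dose-set libraries alone, the correlation was 0.993 for Relt with Lefty1, 0.981 for Pdgfrl with Lefty2 and 0.836 between the 2 Lefty genes. There Relt ranked 2 for Lefty1, and Tagln2, Flt1, Pmepa1 and Igfbp3 ranked 11, 20, 35 and 36. For Lefty2, Vim, Pdgfrl, Adam19, Cer1 and Lhx1 ranked 6, 8, 11, 12 and 32.

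The neighbourhood of the genes was read from the RefSeq gene table of assembly GRCm38.p6. The model of the lncRNA Gm39715 overlaps that of Lefty1. The sources used here do not say whether counting used the strand, and reads from that overlap cannot be told apart. On the far side of Lefty1 lie Tmem63a, an ion channel gene, and Ephx1, the microsomal epoxide hydrolase gene. On the far side of Lefty2 the nearest models, Gm18036 and Gm39714, were not measured, and the nearest measured genes are Sde2, a replication and splicing factor gene, and H3f3a, a histone H3.3 gene.

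The nearest neighbour of Lefty1 on its far side, Tmem63a, had a smaller slope than either Lefty gene, called without SFM replicate 2. It stood at 4.61 and 3.37 CPM in SFM replicates 1 and 2, 4.12 CPM in SB, 9.74 in AA3, 13.1 and 13.7 in AA15 and 17.4 CPM in AA100. Its slope was 0.70 ± 0.15 log2 units (edgeR, adjusted p = 0.115) and 0.65 ± 0.13 without SFM replicate 2 (adjusted p = 0.00744), against 1.50 for each Lefty gene. Unlike the Lefty genes it was not lower in SB than in SFM replicate 1 (-0.11 ± 0.39, edgeR adjusted p = 0.944). By standard RNA-seq Tmem63a went from 15.2 and 17.8 CPM in AA3 to 54.0 CPM in AA100 (1.74 ± 0.10, edgeR adjusted p = 7.94e-71).

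Ephx1, Sde2 and H3f3a had slopes of 0.13, 0.11 and 0.22 without SFM replicate 2, and none of these was called there (edgeR, adjusted p from 0.259 to 0.704) or with all libraries (0.612 to 0.772). Of the 4 flanking genes described here, Tmem63a alone was called in that fit of the dose trend. From AA3 to AA100 the mean of Ephx1 also rose by standard RNA-seq, from 2.224 to 6.738 CPM. By DP-seq from 50 pg it went from 2.809 to 12.38 CPM, and by SMART-seq from 1.178 to 7.992 CPM. Its paired AA100 libraries differed widely there, with 215 and 79 counts and 350 and 70. H3f3a was lower at AA100 in each of these sets, and Sde2 was lower by standard RNA-seq and higher in the others.

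**Figure D4:**
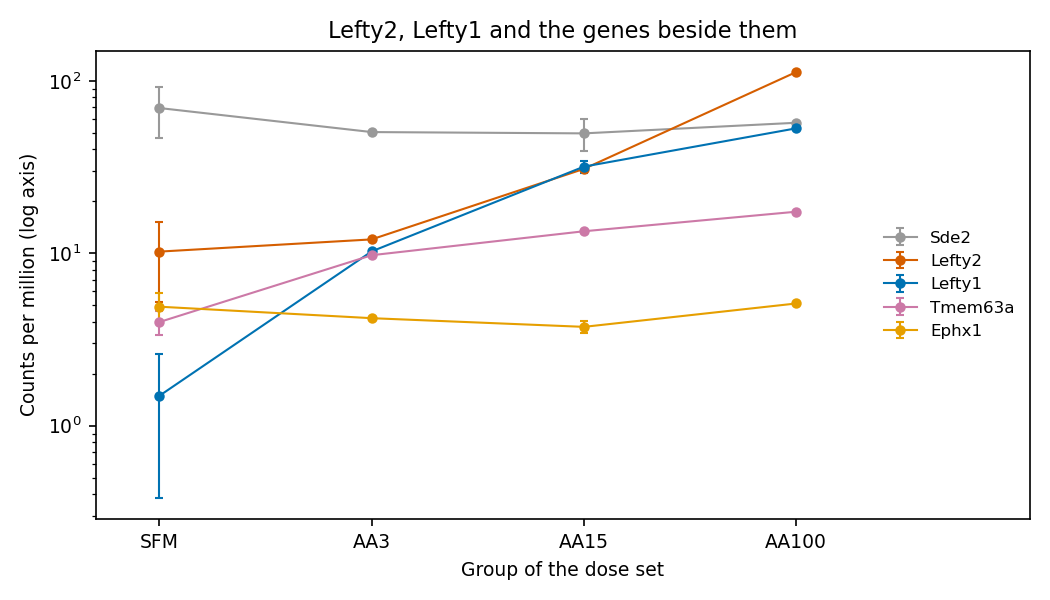
Mean CPM, on a log axis, of Lefty1, Lefty2 and 3 genes beside them in the groups of the dose set; bars span the lowest to the highest library of a group with 2 libraries (SFM and AA15). Lefty1 and Lefty2 end at 53.0 and 112 CPM in AA100, Tmem63a at 17.4 CPM, and Ephx1 and Sde2 at 5.11 and 57.1 CPM, between their SFM libraries.

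The dilution series asked how little AA3 mRNA still gives the same values. At 10 ng Lefty1 stood at 8.68 and 10.4 CPM and Lefty2 at 3.86 and 7.36 CPM, from 27 and 107 counts of Lefty1 and 12 and 76 of Lefty2. At 1 ng Lefty1 stood at 9.29 and 8.18 CPM and Lefty2 at 7.09 and 7.32 CPM. At 100 pg it was 20.7 and 12.1 CPM for Lefty1 and 11.9 and 10.4 CPM for Lefty2. Between 1 ng and 100 pg the ranges of both genes parted, with the 100 pg libraries the higher. These inputs were not tested against each other, and the share of all genes that part in this way was not counted.

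At 50 pg Lefty1 stood at 10.6 and 14.9 CPM and Lefty2 at 9.001 and 9.819 CPM. At 10 pg Lefty1 stood at 24.2 and 11.99 CPM, from 68 and 38 counts, and Lefty2 at 5.33 and 6.62 CPM, from 15 and 21 counts. The 10 pg pair thus differed 2.02-fold for Lefty1 and 1.24-fold for Lefty2. From 10 ng to 10 pg, replicate ratios of Lefty1 were between 1.14 and 2.02 and those of Lefty2 between 1.03 and 1.91.

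At 1 pg Lefty1 was not detected in 1 library and Lefty2 in neither. Lefty1 had 0 counts in replicate 1, of 427556 in all, and 83 counts in replicate 2, of 448933, which is 184.9 CPM and above all other libraries of the series. Lefty2 had 0 counts in both, where 3 counts would be 7.02 and 6.68 CPM, close to its level at 10 ng. A loss of Lefty2 from its 10 ng level was therefore not detectable in either library alone, and the libraries were not pooled. The floors lay below its means at 100 pg and 50 pg, 11.15 and 9.41 CPM.

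In tests against 10 ng, neither gene was called at 1 ng, 100 pg, 50 pg or 10 pg (edgeR, adjusted p from 0.403 to 1). There 0.0%, 0.989%, 1.08% and 8.37% of 10817 genes were called. At 1 ng edgeR counted 136 genes at an unadjusted p under 0.05 and DESeq2 called 73. At 1 pg, where 24.9% of genes were called, Lefty1 passed with 4.22 ± 1.33 log2 units (edgeR, adjusted p = 0.0449) on the 83 counts of 1 library, and without that library the fitted change was -8.61 with an adjusted p of 0.108. The call was also lost when any library of the 10 ng, 1 ng, 100 pg or 50 pg pairs was left out (edgeR, adjusted p from 0.0809 to 0.224).

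**Figure D5:**
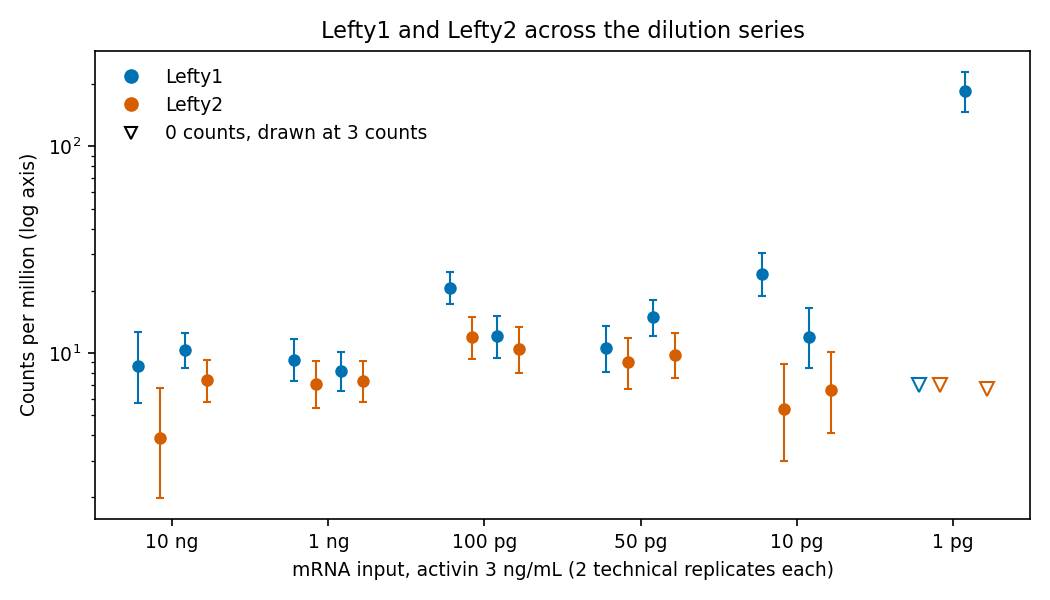
CPM of Lefty1 (blue) and Lefty2 (orange) in the 12 libraries of the dilution series, on a log axis; bars are exact 95% Poisson intervals and triangles mark 0 counts, drawn at 3 counts. From 10 ng to 10 pg Lefty1 lies between 8.18 and 24.2 CPM, and at 1 pg the libraries part into 0 and 184.9 CPM.

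The primer sets and the paired-end library gave Lefty1 few counts. Primer sets 1, 2 and 3 gave 8, 2 and 1 counts of Lefty1 and 70, 25 and 33 of Lefty2, so that Lefty1 made up 10.3%, 7.41% and 2.94% of the pair. The paired-end library from 100 pg gave 10 counts of Lefty1 and 27 of Lefty2, a share of 27.0% (exact binomial 95% interval 13.8 to 44.1). In the 10 dilution libraries from 10 ng to 10 pg, made from mRNA with the same labelled dose, the share of Lefty1 ran from 52.8% to 81.9%. All 4 of these libraries lie below that range, each with 1 library and no replicate. Below it too lie the AA3 libraries of the dose set (46.0%), standard RNA-seq (39.5% in both) and DP-seq from 50 pg (50.0%). The SMART-seq AA3 libraries, at 76.2% and 72.7%, lie within it.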

How the data were processed

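The authors deposited 1 table of unique read counts per RefSeq transcript for each of 33 libraries, per the file headers. In 8 of the deposited tables some values, 15 in all, are not whole, and these were treated as estimated counts and rounded. Per the labels' protocols, mRNA was reverse transcribed and amplified by DP-seq, made into standard RNA-seq libraries, or made into SMART-seq libraries with 13 cycles. The aligner, counting rule and build were not given in the sources used here, and no genome coordinates are printed. Of 26566 transcripts, 25857 were named through the RefSeq gene table and 150 through GENCODE, and 559 kept their identifier. Library totals ran from 427556 to 30609013 counts, and a small count is correspondingly imprecise.

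Groups follow the labels. Counts were summed per gene and tested over all genes with edgeR 4.0.16 in R 4.3.3 (filterByExpr with a minimum count of 10 and a minimum total of 15, TMM, robust quasi-likelihood fits, Benjamini-Hochberg adjustment, threshold 0.05), with DESeq2 1.42.0 as an alternative. Both members passed the filter in every fit. Where a group has 1 library, its spread was taken to equal that of the fit's other groups. CPM and shares use plain library totals. Intervals are exact at 95% (scipy 1.17.1). The fits were tested on simulated data. Named genes are the members, up to 3 pathway genes per role with the largest slopes plus Nodal and Tdgf1, genes beside the members, and the 5 most alike for each member. Some named items are not reported here. The members and lists were chosen with earlier results of these data known. Alternatives were scaling, filter, test, dose coding, replicate block, joint fits and leaving out libraries. AA100 against AA3 in the dose set, its difference from DP-seq, and the nearest measured neighbours were added after seeing the data. Same-numbered libraries did not deviate together (correlations of -0.195 in the dose set, -0.019 by SMART-seq and -0.035 to 0.025 over 15 dilution pairs), so the numbers were not taken as pairs.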

Additional observations from a re-analysis of the deposited data

Results flagged for a closer look

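The share of Lefty1 in the summed counts of both Lefty genes stood out because it moved in opposite directions in different library sets under the same contrast. The mean share in AA100 minus that in AA3 was -13.96 percentage points in the dose set. It was 26.81 points by standard RNA-seq, 30.86 points by DP-seq from 50 pg and 20.63 points by SMART-seq. Every AA100 library of the last 3 sets lay above the AA3 libraries of its set, and the AA100 library of the dose set lay below. The difference was not tested.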

How the results depend on the processing

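With DESeq2 the slopes of Lefty1 (1.87, adjusted p = 4.76e-08) and Lefty2 (0.97, adjusted p = 0.0303) were called, as were Lefty2 in SB against SFM (-10.08, adjusted p = 0.00741) and Lefty1 in AA100 against SFM (5.16, adjusted p = 0.000342). DESeq2 called 497 genes in the dose trend (48 by edgeR), 4431 by standard RNA-seq (7849) and 1135 by SMART-seq (155). In the differences between sets it called 508 for DP-seq minus standard (104), 477 for SMART-seq minus standard (120) and 516 for SMART-seq minus DP-seq (3). With SB as the lowest step, the Lefty1 slope was 2.16 (edgeR adjusted p = 0.0364). Lefty2 in AA3 against SFM, reported as -0.01, was 0.02 with no filter and 0.73 with a replicate block. In the joint fit the standard RNA-seq change of Lefty2 was 1.20 (edgeR adjusted p = 0.645). Per transcript length, the Lefty1 share was 56.53% in AA3, 41.85% in AA100 and 75.02% by standard RNA-seq in AA100. DP-seq counts, as in the dose set, need not follow transcript length.

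With the replicate block, which the numbers do not support as a pairing, the dose trend called 0 genes with 1.88 for Lefty1 (edgeR adjusted p = 0.166) and 1.21 for Lefty2 (0.212), SMART-seq called 54, and the 1 pg call of Lefty1 was lost (4.08, adjusted p = 0.0786). A crossed pairing called 1 gene in the dose trend and 5 in AA15 against SFM.

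Leaving out single libraries moved the slope from 1.50 to 1.99 for Lefty1 and from 0.84 to 1.50 for Lefty2. In SB against SFM the range was -8.23 to -5.86 for Lefty1 and -11.16 to -9.23 for Lefty2. Lefty2 in AA3 against SFM ran from -0.70 to 1.32. In AA100 against SFM the ranges were 4.46 to 6.72 and 2.51 to 4.54. By standard RNA-seq, in the joint fit, they were 2.78 to 2.82 and 1.19 to 1.23, and no call was left. By SMART-seq Lefty1 ran from 3.61 to 4.37. The Lefty2 differences ran from -0.15 to 0.48 for DP-seq minus standard, -0.27 to 0.23 for SMART-seq minus standard and -0.50 to 0.11 for SMART-seq minus DP-seq. At 1 ng the ranges were -0.34 to 0.01 for Lefty1 and -0.13 to 0.89 for Lefty2, and at 1 pg Lefty1 ran from -8.61 to 5.10. Of the main results under the alternatives, 72 values kept their direction and side of the threshold, 15 newly passed it, 7 no longer did and 3 moved. The 72 include values called neither in the main fit nor in the alternative. The causes were not tested. Groups of 1 library, technical pairs and low counts limit these results.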
